A study of Mus musculus with 6 samples.

Results

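Genes of amino acid metabolism and known targets of the transcription factor ATF4 were followed in tumor-associated macrophages (TAMs) with and without PD-1 deletion in myeloid cells. The list held 39 symbols, and all 39 were found in the count table of 55421 genes. It was divided by role into 6 regulators of the stress response with ATF4 itself, 7 enzymes of serine and one-carbon metabolism, 9 other enzymes of amino acid metabolism, 7 amino acid transporters and 10 aminoacyl-tRNA synthetases. Of the 39 genes, 38 had 10 or more counts in at least 3 libraries, as did 14488 genes of the whole table. The exception was Cbs, an enzyme of the transsulfuration pathway, with 1, 1 and 2 raw counts in Pdcd1f/f TAMs and 5, 2 and 1 in Pdcd1f/fLysMcre TAMs, which was too low to be tested.

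TAMs were sorted as live CD45+CD11b+F4/80+Ly6G− cells from MC17-51 fibrosarcomas, which the labels call M17, on day 15 after implantation in mice of 8 to 12 weeks of age. Both genotypes carried floxed Pdcd1 alleles, the gene of the inhibitory receptor PD-1. Pdcd1f/fLysMcre mice also carried Cre recombinase in the lysozyme M gene (Lyz2), which is active in macrophages, monocytes and neutrophils and is not restricted to TAMs, and Pdcd1f/f mice were the controls. There were 3 libraries for each genotype, and the comparison asked which transcripts differ in TAMs between these genotypes.

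Values of single libraries are given in the order of replicates 1, 2 and 3, as counts that the authors normalized for depth. Lyz2, which the Cre insertion disrupts, had normalized counts of 225226, 217390.4 and 207974 in Pdcd1f/f TAMs and 465, 405 and 411 in Pdcd1f/fLysMcre TAMs, so the libraries carried Cre as labelled. Libraries with Cre also lost most Lyz2 transcripts, so effects of Cre and of Lyz2 loss cannot be told apart from those of PD-1 deletion. Pdcd1 itself had only 7 to 16 counts per library (log2 fold change -0.25, SE 0.45, adjusted p = 0.771), and counts summed over the gene cannot tell floxed exons from the rest. Total counts ranged from 41833823 to 51417209 per library. In Pdcd1f/f replicate 1 and Pdcd1f/fLysMcre replicate 2, the deviation of a gene from the mean of its genotype fell with its GC content (Spearman rho −0.719 and −0.645 across 11549 genes, which are not independent replicates), while rho was 0.168 to 0.659 in the other 4 libraries. Counts are therefore given below with a fit that includes GC and length offsets and with a fit of the other 4 libraries. Xist ranged from 17318 to 26511 normalized counts in Pdcd1f/f TAMs and from 8530 to 13137 in Pdcd1f/fLysMcre TAMs. The sum of 4 Y-linked genes ranged from 1545 to 1914 and from 6267 to 7233, so a difference in the sex of the mice cannot be told apart from the genotype.

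When an amino acid runs short, uncharged tRNA activates the kinase GCN2, which phosphorylates the translation factor eIF2alpha. Other kinases do the same upon endoplasmic reticulum stress, heme deficiency or viral RNA. General translation then falls while translation of the Atf4 mRNA rises, so that ATF4 is set largely at the level of the protein. ATF4 binds with C/EBP family proteins to response elements near its targets and raises transcription of genes that make amino acids, carry them into the cell and load them onto tRNA. In macrophages, serine and one-carbon metabolism supplies glutathione, nucleotides and methyl groups.

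A core sequence of these elements is TGATGNAA, which reads TTNCATCA on the opposite strand. It was searched on both strands in RefSeq promoters of GRCm38.p6, from 250 bases before to 50 bases after each annotated start, and 33 of the 39 members had such a promoter by symbol. The letters were in a promoter of 11 of these 33 genes (33.3%), in comparison with 1219 of 27025 genes (4.51%) and 1304 of 32851 windows (3.97%). Many members were listed because they are known ATF4 targets, so this share describes the list and is no test of it. By role, the letters were found in 5 of 7 tRNA synthetases (Aars, Gars, Iars, Tars and Yars), 3 of 8 other enzymes (Asns, Pycr1 and Got1), 2 of 6 regulators (Trib3 and Chac1), 1 of 5 transporters (Slc7a11) and 0 of 7 serine and one-carbon genes. The stricter spelling TGATGCAA was in 0.895% of all windows and in 8 members, while TGACGTCA, the cAMP response element, was in 1.79% of windows and in no member with a promoter in the table. A match is a description of letters and not of a bound site.

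Windows of 30 bases that hold these letters are shown for 10 of these genes, both those that were higher in the comparison below and those that did not pass, so that the letters around the match can be compared between roles. Each is written 5′ to 3′ on the strand of its gene, with GRCm38.p6 coordinates and with the matching letters in capitals. Slc7a11 has matches on both strands and is shown with both.
Asns, chr6:7693214-7693243, minus strand: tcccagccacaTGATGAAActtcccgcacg
Slc7a11, chr3:50443661-50443690, minus strand: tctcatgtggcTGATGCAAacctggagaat
Slc7a11, chr3:50443642-50443671, minus strand: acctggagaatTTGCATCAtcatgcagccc
Gars, chr6:55037960-55037989, plus strand: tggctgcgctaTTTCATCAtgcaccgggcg
Iars, chr13:49682126-49682155, plus strand: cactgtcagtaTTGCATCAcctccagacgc
Tars, chr15:11399655-11399684, minus strand: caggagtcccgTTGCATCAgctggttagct
Yars, chr4:129189895-129189924, plus strand: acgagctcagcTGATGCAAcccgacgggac
Trib3, chr2:152344028-152344057, minus strand: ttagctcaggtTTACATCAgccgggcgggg
Chac1, chr2:119351038-119351067, plus strand: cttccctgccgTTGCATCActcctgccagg
Pycr1, chr11:120643833-120643862, minus strand: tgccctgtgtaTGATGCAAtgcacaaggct
Got1, chr19:43524689-43524718, minus strand: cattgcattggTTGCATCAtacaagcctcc
In Asns and Gars the variable letter, read on the strand of the motif, is A and in Trib3 it is T, so these windows do not hold the stricter spelling. The first letter of the matches lay between positions -193 (Chac1) and 14 (Trib3), counted from 0 at the annotated start. Of the 19 members that were higher in the comparison below, 16 had a promoter in the table and 7 of these held the letters, in comparison with 4 of 17 of the other members. The 4 were Trib3, Chac1, Pycr1 and Got1, which were past the threshold as higher once GC and length offsets were included. The split therefore depends on the fit, and the difference was not tested.

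**Figure D1:**
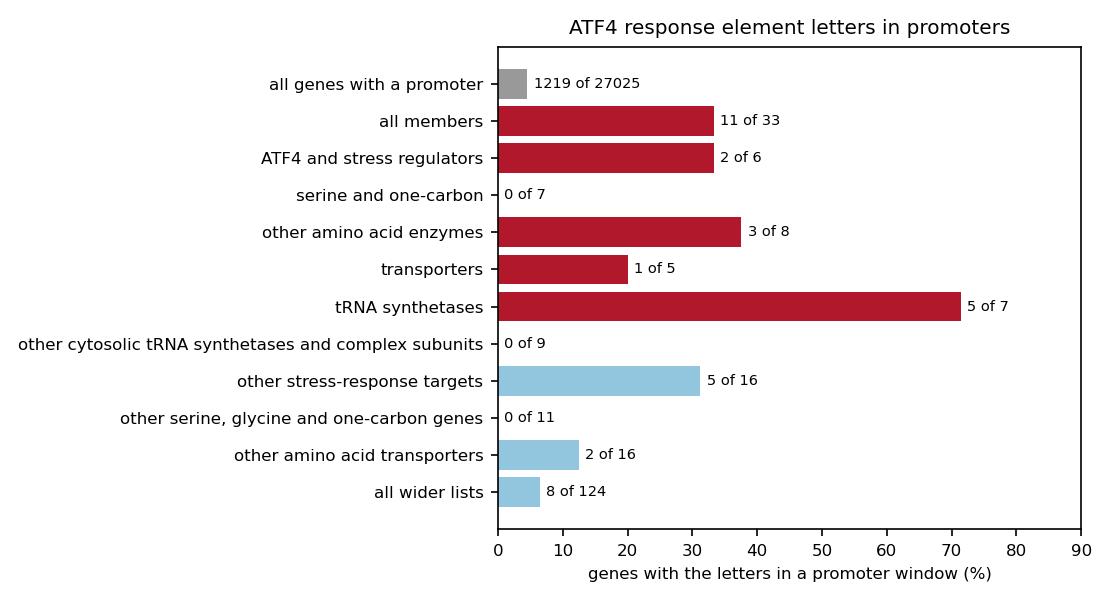
Share of genes (%, horizontal bars from 0) whose RefSeq promoter windows hold TGATGNAA on either strand, with the number of genes beside each bar. Gray is all genes with a promoter, red the member genes and their roles, and blue other lists; 5 of 7 tRNA synthetases among the members held the letters and 0 of 9 other cytosolic synthetases and complex subunits did.

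Many of these genes had higher expression in Pdcd1f/fLysMcre TAMs. Of the 38 genes tested by quasi-likelihood in edgeR, at a threshold of 0.05 after Benjamini-Hochberg adjustment over 14469 genes, 19 were higher, 1 was lower and 18 did not pass. Over all genes tested, 2.42% were higher and 3.01% were lower. The median log2 fold change of the members was 0.32 and that of all genes was -0.0026. In 23 of the 38 genes every Pdcd1f/fLysMcre library was above every Pdcd1f/f library, which held for 14.1% of all genes, and in 1 gene every library was below, which held for 13.1%. Changes were mostly modest, from a log2 fold change of 1.199 for Slc6a9, 0.90 for Slc7a11 and 0.89 for Asns to 0.27 for Yars, the smallest rise past the threshold. In bulk RNA, a change in the share of a cell type and a change in transcripts per cell cannot be told apart.

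With GC and length offsets, 29 members were higher and 1 was lower, while 9.45% and 8.54% of all genes were. Without Pdcd1f/f replicate 1 and Pdcd1f/fLysMcre replicate 2 together, 24 were higher and 3 lower, in comparison with 12.5% and 13.6% of 14354 genes, and the 20 members past the threshold in all 6 libraries were among these 27. In those 2 libraries alone, the ratio of Pdcd1f/fLysMcre to Pdcd1f/f had the same sign as the fit of 6 libraries for 35 of 38 members and for 11828 of 14469 genes. In 6 fits that each omitted 1 library, 8 to 23 members were past the threshold. The 23 were found without Pdcd1f/f replicate 1, when 21.6% of all genes were past it, and in the other 5 fits 1.51% to 3.56% of all genes were. Asns, Slc7a11, Slc7a1, Mthfd2, Gars, Iars, Tars and Glul were called in each of these fits. Leaving out Pdcd1f/f replicate 2 took away 11 of the 20 calls and leaving out Pdcd1f/fLysMcre replicate 1 took away 12, when 1.51% of all genes were past the threshold in either fit.

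**Figure D2:**
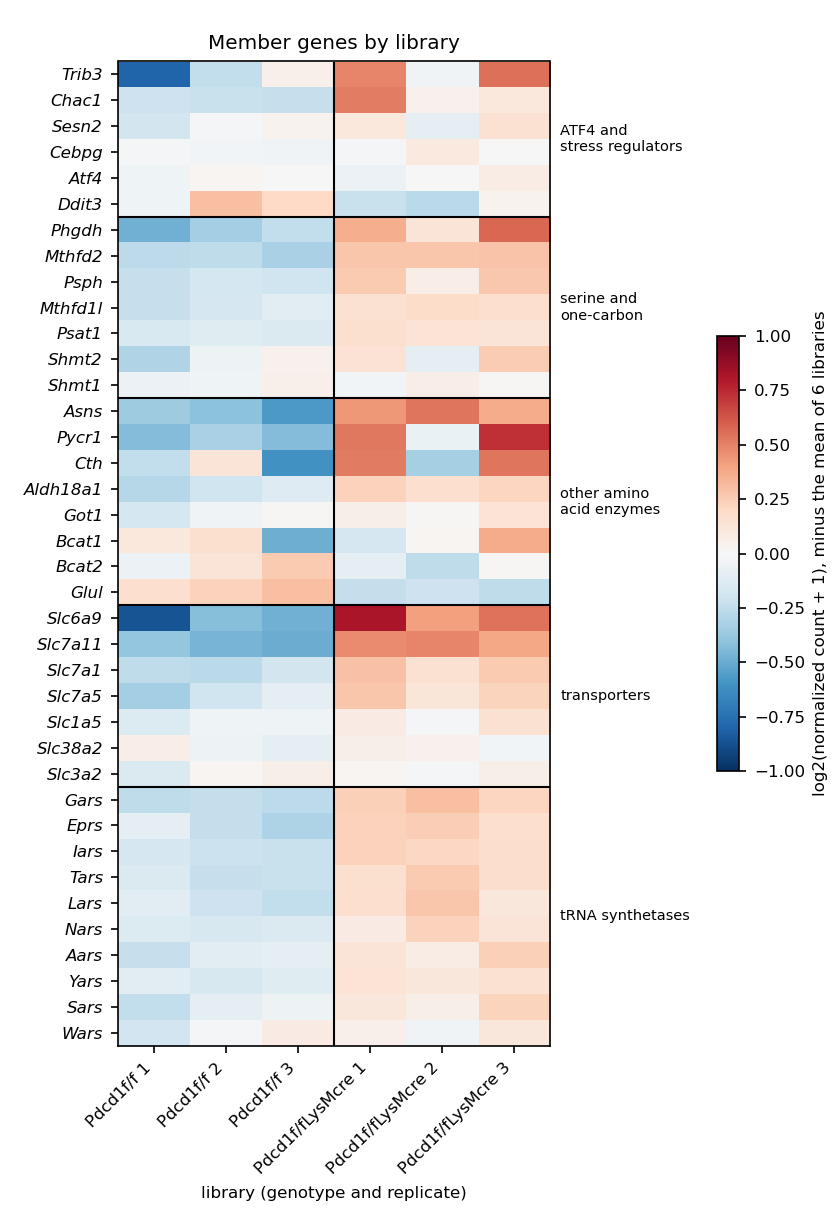
Heat map of 38 member genes (rows, grouped by role) in 6 libraries (columns). Color is log2(normalized count + 1) minus the mean of the gene over the 6 libraries, red for above and blue for below; most rows turn from blue in the 3 Pdcd1f/f libraries to red in the 3 Pdcd1f/fLysMcre libraries, Glul turns the other way, and Atf4 stays near white.

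Among the 6 regulators, none passed the threshold of edgeR's test, nor that of DESeq2 or limma, and 2 were higher and 1 was lower at an unadjusted p under 0.05. Over all genes, 12.3% were higher and 11.9% lower at that unadjusted p, 5.85% and 6.1% of the 12693 genes with an adjusted p in DESeq2 were called by it, and 2.25% and 2.96% of all genes were called by limma. Atf4, on chr15:80255184-80257541 of GRCm38, had normalized counts of 22843, 23790.1 and 23458 in Pdcd1f/f TAMs and 22508, 23534 and 24762 in Pdcd1f/fLysMcre TAMs. The libraries of the genotypes overlapped (log2 fold change 0.02, SE 0.06, adjusted p = 0.895), and the small difference changed sign with library size as the only scaling and in fits without some libraries. Per kilobase of exon, Atf4 had the highest level of the 38 genes in either genotype, 9908 and 10009 normalized counts, followed by Slc3a2 with 6448 and 6640.4. Transcript counts do not measure the ATF4 protein.

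Trib3, a pseudokinase that ATF4 induces, had normalized counts of 83.5, 123 and 151 in Pdcd1f/f TAMs and 205, 143 and 214 in Pdcd1f/fLysMcre TAMs (log2 fold change 0.66, SE 0.23, adjusted p = 0.112). Pdcd1f/f replicate 3 lay above Pdcd1f/fLysMcre replicate 2, so the groups overlapped. Chac1, which degrades glutathione, had normalized counts of 89.952, 89.4 and 88.7 in Pdcd1f/f TAMs and 149, 108 and 112 in Pdcd1f/fLysMcre TAMs (log2 fold change 0.46, SE 0.17, adjusted p = 0.142), without overlap. Ddit3, which encodes the stress transcription factor CHOP, had normalized counts of 926, 1179 and 1095 in Pdcd1f/f TAMs and 819, 791 and 977 in Pdcd1f/fLysMcre TAMs (log2 fold change -0.30, SE 0.11, adjusted p = 0.139), and its highest Pdcd1f/fLysMcre library lay between the Pdcd1f/f libraries. It lies 10.01 Mb from Lyz2 on chromosome 10. Sesn2, a leucine sensor of the sestrin family, and Cebpg, a dimer partner of ATF4, had log2 fold changes of 0.12 and 0.05, and the sign of Cebpg turned with GC and length offsets. With these offsets Trib3 (adjusted p = 0.002), Chac1 (adjusted p = 0.0257) and Sesn2 (adjusted p = 0.00235) were past the threshold, and Ddit3 was past it only as a decrease in the 4 libraries (adjusted p = 0.00903) and in 3 other alternatives.

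Serine synthesis genes rose together. All 3 enzymes that make serine from a glycolytic intermediate were past the threshold. Phgdh, the first and rate-setting enzyme, on chr3:98313170-98339990, had normalized counts of 264, 292 and 311 in Pdcd1f/f TAMs and 475, 405 and 551 in Pdcd1f/fLysMcre TAMs (log2 fold change 0.73, SE 0.13, adjusted p = 0.0107). Every Pdcd1f/fLysMcre library was higher than the highest control. Psat1, the transaminase of the next step, had normalized counts of 4544, 4657 and 4561 in Pdcd1f/f TAMs and 5633, 5550.5 and 5517 in Pdcd1f/fLysMcre TAMs (log2 fold change 0.28, SE 0.06, adjusted p = 0.0191). Psph, the phosphatase that releases serine, had normalized counts of 499, 518 and 508 in Pdcd1f/f TAMs and 700.4, 613 and 704 in Pdcd1f/fLysMcre TAMs (log2 fold change 0.41, SE 0.09, adjusted p = 0.0311). Psat1 was far more abundant than the enzymes before and after it, with 1078 and 1309 normalized counts per kilobase in Pdcd1f/f and Pdcd1f/fLysMcre TAMs against 116 and 192 for Phgdh and 117 and 155 for Psph. Psph shares 452 exonic bases (10.4%) with Cct6a on the opposite strand, and whether reads were counted by strand is not stated. With single libraries left out, Phgdh lost its call in 2 of 6 fits, Psph in 4 and Psat1 in 5, all but that without Pdcd1f/f replicate 1. The highest adjusted p was 0.0644 for Phgdh, 0.114 for Psat1 and 0.149 for Psph, each without Pdcd1f/fLysMcre replicate 1, and their log2 fold changes ran from 0.60 to 0.83, from 0.27 to 0.29 and from 0.37 to 0.47.

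In the one-carbon pathway the mitochondrial enzymes Mthfd2 and Mthfd1l rose. Mthfd2, the mitochondrial folate dehydrogenase, on chr6:83305691-83325908, had normalized counts of 3614, 3621 and 3458 in Pdcd1f/f TAMs and 5237, 5254 and 5284 in Pdcd1f/fLysMcre TAMs (log2 fold change 0.56, SE 0.06, adjusted p = 0.000524). This was a rise of the mean from 3564 ± 92.3 to 5258 ± 23.8 normalized counts (SD, n = 3). Mthfd1l, which releases formate from mitochondria, had normalized counts of 2254, 2359 and 2457 in Pdcd1f/f TAMs and 2943, 3014 and 2974 in Pdcd1f/fLysMcre TAMs (log2 fold change 0.34, SE 0.06, adjusted p = 0.0138). Shmt2, the mitochondrial serine hydroxymethyltransferase, which lies 10.23 Mb from Lyz2, had normalized counts of 4168, 4964 and 5315 in Pdcd1f/f TAMs and 5690.2, 4836 and 6153 in Pdcd1f/fLysMcre TAMs (log2 fold change 0.21, SE 0.11, adjusted p = 0.254) and was past the threshold with GC and length offsets (adjusted p = 1.74e-05) and in the 4 libraries (adjusted p = 0.0135). Its cytosolic counterpart Shmt1 had normalized counts of 1264, 1273 and 1365 in Pdcd1f/f TAMs and 1287, 1378 and 1322 in Pdcd1f/fLysMcre TAMs (log2 fold change 0.03, SE 0.07, adjusted p = 0.813), and its sign turned in the 4 libraries. Of the 7 serine and one-carbon genes, 5 rose and the 2 serine hydroxymethyltransferases did not pass. With single libraries left out, Mthfd2 kept its call in each fit, while Mthfd1l lost it in 2 and had its highest adjusted p, 0.0966, without Pdcd1f/f replicate 2, with log2 fold changes from 0.30 to 0.37.

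From a list of 14 other serine, glycine and one-carbon genes, 2 were higher and 1 was lower, with a median log2 fold change of 0.06. Aldh1l2 and Aldh1l1, the mitochondrial and the cytosolic formyltetrahydrofolate dehydrogenase, moved in opposite directions. Aldh1l2 had normalized counts of 53.8, 55.9 and 50.4 in Pdcd1f/f TAMs and 86.0, 133 and 103 in Pdcd1f/fLysMcre TAMs (log2 fold change 1.01, SE 0.21, adjusted p = 0.0202). Aldh1l1 had normalized counts of 192, 288 and 264 in Pdcd1f/f TAMs and 135, 109.5 and 135 in Pdcd1f/fLysMcre TAMs (log2 fold change -0.97, SE 0.18, adjusted p = 0.0109). Atic, which uses formyl groups in purine synthesis, was higher (log2 fold change 0.28, SE 0.06, adjusted p = 0.0219).

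**Figure D3:**
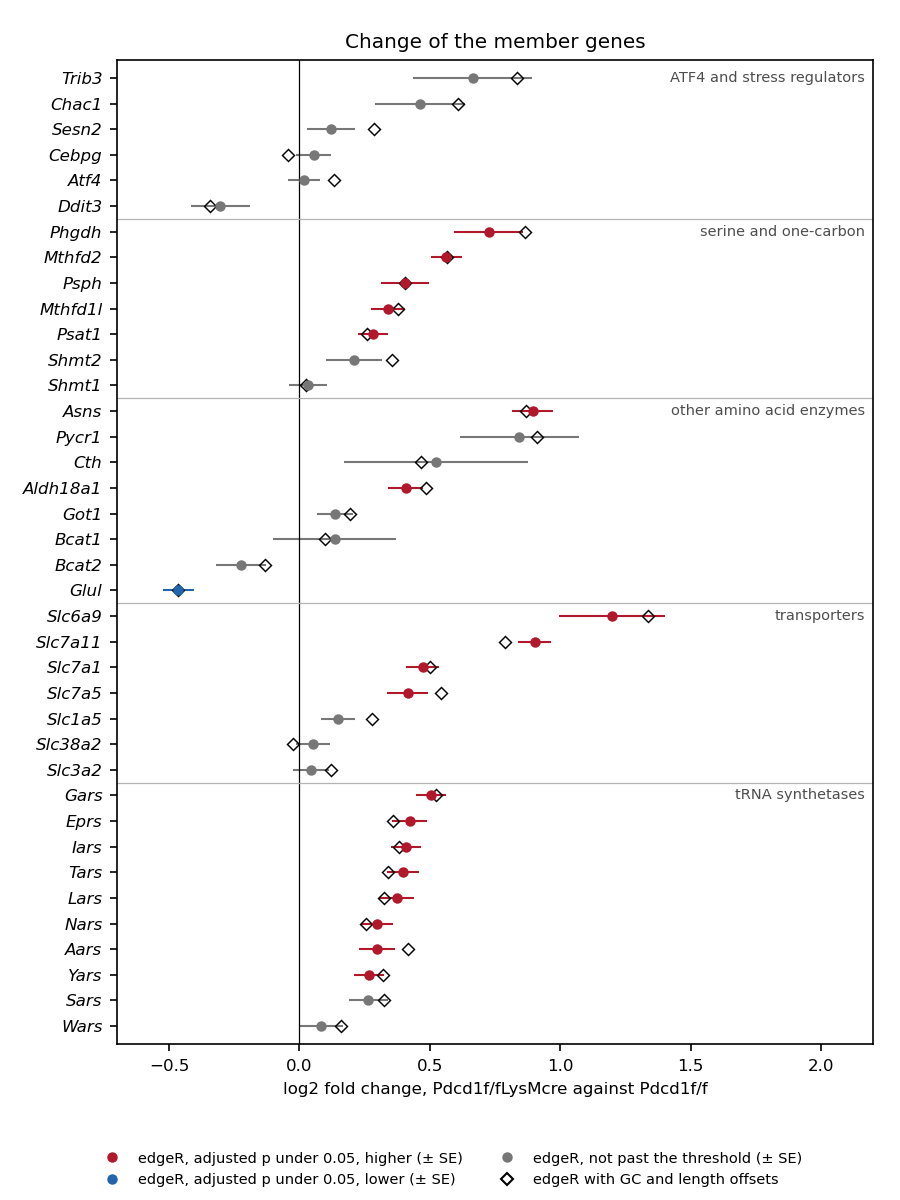
Log2 fold change (horizontal axis) of 38 member genes, Pdcd1f/fLysMcre against Pdcd1f/f, by role. Circles with bars are edgeR estimates ± SE from 6 libraries, red and blue where the adjusted p-value was under 0.05, and open diamonds are estimates with GC and length offsets; 8 of 10 tRNA synthetases, 5 of 7 serine and one-carbon genes and 4 of 7 transporters are red.

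Asparagine synthetase showed one of the clearest differences of the list. Asns, on chr6:7675169-7693254, had normalized counts of 1817, 1754 and 1566 in Pdcd1f/f TAMs and 3142, 3377 and 3017 in Pdcd1f/fLysMcre TAMs, a 1.86-fold rise (log2 fold change 0.89, SE 0.08, adjusted p = 0.000173), and it remained past the threshold in each alternative. The lowest Pdcd1f/fLysMcre library was well above the highest control. The listed enzymes of proline synthesis from glutamate both had higher values. Aldh18a1, which begins that pathway, had normalized counts of 2217, 2361 and 2476 in Pdcd1f/f TAMs and 3174, 3036 and 3131 in Pdcd1f/fLysMcre TAMs (log2 fold change 0.41, SE 0.07, adjusted p = 0.00715, and 0.0613 without Pdcd1f/fLysMcre replicate 1). Pycr1, which completes it, had normalized counts of 53.8, 58.1 and 53.7 in Pdcd1f/f TAMs and 105, 69.5 and 122 in Pdcd1f/fLysMcre TAMs, and although its groups did not overlap it did not pass (log2 fold change 0.84, SE 0.23, adjusted p = 0.0612). Its adjusted p-value was 0.00695 with GC and length offsets and 0.00296 in the 4 libraries.

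Glutamine synthetase moved the other way. Glul, which makes glutamine from glutamate and ammonia, on chr1:153899944-153909723, had normalized counts of 18663, 19462 and 20474 in Pdcd1f/f TAMs and 14096, 14377 and 13939 in Pdcd1f/fLysMcre TAMs. It was the only member that fell (log2 fold change -0.46, SE 0.06, adjusted p = 0.00185), with no overlap of the groups, and it lost its call only when a fold change above 1.2 was asked for. The remaining enzymes did not pass. Cth, which forms cysteine from cystathionine, had normalized counts of 21.3, 27.9 and 16.4 in Pdcd1f/f TAMs and 37.0, 20.0 and 37.4 in Pdcd1f/fLysMcre TAMs (log2 fold change 0.52, SE 0.35, adjusted p = 0.39), with overlap. Got1, the cytosolic aspartate aminotransferase, Bcat1 and Bcat2, which transaminate the branched-chain amino acids, had log2 fold changes of 0.14, 0.14 and -0.22, and that of Bcat1 turned negative without Pdcd1f/f replicate 3 or Pdcd1f/fLysMcre replicate 3. Got1 was past the threshold with GC and length offsets (adjusted p = 0.00237), and Bcat2 was past it as a decrease in the 4 libraries (adjusted p = 0.00923).

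**Figure D4:**
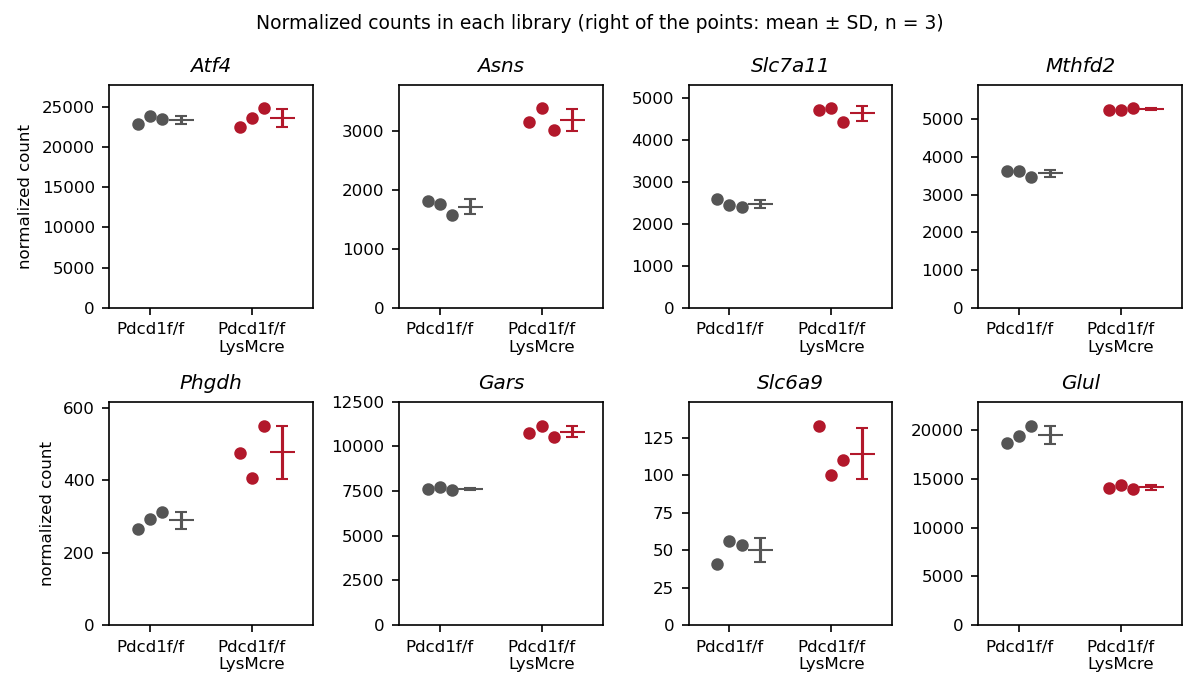
Normalized counts (vertical axes from 0) of 8 members in each library, gray for Pdcd1f/f and red for Pdcd1f/fLysMcre, with mean ± SD (n = 3) to the right of the points. Atf4 overlaps between the genotypes, Glul is lower in the 3 Pdcd1f/fLysMcre libraries, and the other 6 genes are higher in each of them.

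Of the 7 transporters, 4 rose. Slc7a11, the light chain of the cystine and glutamate exchanger xCT, on chr3:49892526-50443614, had normalized counts of 2592, 2456 and 2414 in Pdcd1f/f TAMs and 4722, 4762 and 4438 in Pdcd1f/fLysMcre TAMs (log2 fold change 0.90, SE 0.06, adjusted p = 3.33e-05). This was the smallest adjusted p-value of the members, and the gene was past the threshold in each alternative. Slc6a9, the glycine transporter GlyT1, had raw counts of 44, 50 and 49 in Pdcd1f/f TAMs and 144, 105 and 112 in Pdcd1f/fLysMcre TAMs (log2 fold change 1.199, SE 0.20, adjusted p = 0.0078). It had the largest fold change of the members, 2.30-fold, at one of the lowest levels, and it shares 27.8% of its exonic bases with Ccdc24 on the opposite strand, which had no counts. Without Pdcd1f/fLysMcre replicate 1 its adjusted p-value was 0.0563.

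Slc7a1, a carrier of arginine and lysine, had normalized counts of 5381, 5343 and 5661 in Pdcd1f/f TAMs and 7881, 7133 and 7699.7 in Pdcd1f/fLysMcre TAMs (log2 fold change 0.47, SE 0.06, adjusted p = 0.00227). Slc7a5, the light chain of the large neutral amino acid transporter LAT1, had normalized counts of 3662, 4029 and 4355 in Pdcd1f/f TAMs and 5604, 5033 and 5391 in Pdcd1f/fLysMcre TAMs (log2 fold change 0.41, SE 0.08, adjusted p = 0.0128, and 0.0909 without Pdcd1f/fLysMcre replicate 1). Slc3a2, the heavy chain that pairs with both Slc7a11 and Slc7a5, had normalized counts of 20819.8, 23415 and 24034 in Pdcd1f/f TAMs and 23409, 22809.6 and 24084 in Pdcd1f/fLysMcre TAMs (log2 fold change 0.04, SE 0.07, adjusted p = 0.731). Its libraries overlapped between the genotypes, and its sign turned without Pdcd1f/f replicate 1. With GC and length offsets Slc3a2 was past the threshold as an increase (log2 fold change 0.12, adjusted p = 0.0281). Per kilobase Slc3a2 stood at 6448 and 6640.4 normalized counts, far above its partners Slc7a11 with 179 and 333 and Slc7a5 with 1083 and 1441. The neutral amino acid transporters Slc1a5 and Slc38a2 had log2 fold changes of 0.15 and 0.05 and did not pass, the sign of Slc38a2 turned with GC and length offsets, and Slc1a5 was past the threshold with these offsets (adjusted p = 0.000497).

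Among 24 other amino acid transporters, 21 were tested, 4 were higher and 2 were lower, with a median log2 fold change of 0.05. Slc1a4, a carrier of alanine, serine and cysteine, was higher with normalized counts of 169.7, 139.7 and 153 in Pdcd1f/f TAMs and 303, 241 and 268 in Pdcd1f/fLysMcre TAMs (log2 fold change 0.81, SE 0.14, adjusted p = 0.0078), and so was Slc16a10, a carrier of aromatic amino acids (log2 fold change 0.30, SE 0.06, adjusted p = 0.0163). Slc7a2, a carrier of arginine and lysine like Slc7a1, was lower with normalized counts of 844, 732 and 715 in Pdcd1f/f TAMs and 592, 538 and 535 in Pdcd1f/fLysMcre TAMs (log2 fold change -0.46, SE 0.10, adjusted p = 0.0219), and so was the lysosomal transporter Slc36a1 (log2 fold change -0.32, SE 0.08, adjusted p = 0.0437). The other 2 that were higher, named after their values were seen, were Slc38a1 and Slc43a3, with log2 fold changes of 0.28 and 0.29.

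The tRNA synthetases had the most even change. Each of the 10 had a positive log2 fold change, 8 rose, and in 9 of them every Pdcd1f/fLysMcre library was above every control. These enzymes load amino acids onto their tRNAs. Gars, for glycine, on chr6:55038007-55079500, rose most, with normalized counts of 7609.8, 7700.3 and 7582 in Pdcd1f/f TAMs and 10736, 11162 and 10549 in Pdcd1f/fLysMcre TAMs (log2 fold change 0.51, SE 0.06, adjusted p = 0.00083). Eprs, for glutamate and proline, had normalized counts of 11553, 10458 and 9963 in Pdcd1f/f TAMs and 14413, 14574 and 13804 in Pdcd1f/fLysMcre TAMs (log2 fold change 0.42, SE 0.07, adjusted p = 0.00644). Iars, for isoleucine, had normalized counts of 7788, 7534 and 7513 in Pdcd1f/f TAMs and 10261, 10101 and 9901 in Pdcd1f/fLysMcre TAMs (log2 fold change 0.41, SE 0.06, adjusted p = 0.00265).

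The synthetases for threonine and leucine followed. Tars had normalized counts of 4995, 4704 and 4713 in Pdcd1f/f TAMs and 6145, 6589 and 6218 in Pdcd1f/fLysMcre TAMs (log2 fold change 0.40, SE 0.06, adjusted p = 0.00492). Lars had normalized counts of 5635, 5274 and 5136 in Pdcd1f/f TAMs and 6814, 7352 and 6578 in Pdcd1f/fLysMcre TAMs (log2 fold change 0.37, SE 0.07, adjusted p = 0.0108). Those for asparagine, alanine and tyrosine were the least changed of the 8. Nars had normalized counts of 15411, 15122 and 15260.0 in Pdcd1f/f TAMs and 17898, 19893 and 18472 in Pdcd1f/fLysMcre TAMs (log2 fold change 0.30, SE 0.06, adjusted p = 0.0202). Aars had normalized counts of 6634, 7192 and 7260.3 in Pdcd1f/f TAMs and 8508, 8171 and 9195 in Pdcd1f/fLysMcre TAMs (log2 fold change 0.30, SE 0.07, adjusted p = 0.0332), and it shares 14.3% of its exonic bases with Exosc6 on the same strand, which had no counts. Yars had normalized counts of 3207, 3102 and 3193 in Pdcd1f/f TAMs and 3817, 3749.5 and 3851 in Pdcd1f/fLysMcre TAMs (log2 fold change 0.27, SE 0.06, adjusted p = 0.0275). In all 8 genes the lowest Pdcd1f/fLysMcre library was above the highest Pdcd1f/f library.

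Sars, for serine, had normalized counts of 4363, 4843 and 5006 in Pdcd1f/f TAMs and 5592, 5392 and 6062 in Pdcd1f/fLysMcre TAMs (log2 fold change 0.26, SE 0.07, adjusted p = 0.0671), without overlap, and Wars, for tryptophan, had overlapping libraries and a log2 fold change of 0.08. Both were past the threshold with GC and length offsets, with adjusted p-values of 2.65e-05 and 0.022. With single libraries left out, Gars, Iars and Tars kept their calls in each fit. Eprs lost its call in 2 of the 6 fits, Lars in 3 and Aars in 4. The highest adjusted p-value was 0.0566 for Eprs without Pdcd1f/fLysMcre replicate 1, and 0.0741 for Lars, 0.13 for Nars, 0.142 for Aars and 0.178 for Yars without Pdcd1f/f replicate 2. Nars and Yars were past the threshold only when Pdcd1f/f replicate 1 was the library left out, with log2 fold changes from 0.25 to 0.33 and from 0.25 to 0.28 over the 6 fits.

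Of 13 other cytosolic synthetases and complex subunits, 1 was higher in edgeR's test, Cars for cysteine with normalized counts of 3028, 3131 and 3008 in Pdcd1f/f TAMs and 3732, 3826 and 4176 in Pdcd1f/fLysMcre TAMs (log2 fold change 0.36, SE 0.07, adjusted p = 0.013), and the median log2 fold change was 0.14 in comparison with 0.34 in the 10 members. At an unadjusted p under 0.05, 5 of these 13 were higher and none lower, and the number called higher was 5 in DESeq2, 5 with GC and length offsets and 6 in the 4 libraries, with none lower. Over all genes these shares were 12.3% higher at the unadjusted p, 5.85% in DESeq2, 9.45% with the offsets and 12.5% in the 4 libraries. Of 17 mitochondrial synthetases, 1 was higher, Iars2 for isoleucine (log2 fold change 0.35, SE 0.06, adjusted p = 0.00746), and the median was -0.03. At an unadjusted p under 0.05, 3 of these 17 were higher and 1 was lower. DESeq2 called 1 higher and 0 lower, and 1 was higher and 1 lower both with the offsets and in the 4 libraries. The largest log2 fold change, 0.61, was that of Lars2, named after its values were seen, with overlapping libraries (adjusted p = 0.103). None of the 9 other cytosolic genes and none of the 14 mitochondrial genes with a promoter in the table held TGATGNAA, while 5 of 16 of the further stress-response targets described below did (31.2%), Atf3 among them. The members and these lists were chosen with earlier results of these data known, and the difference between the lists was not tested.

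**Figure D5:**
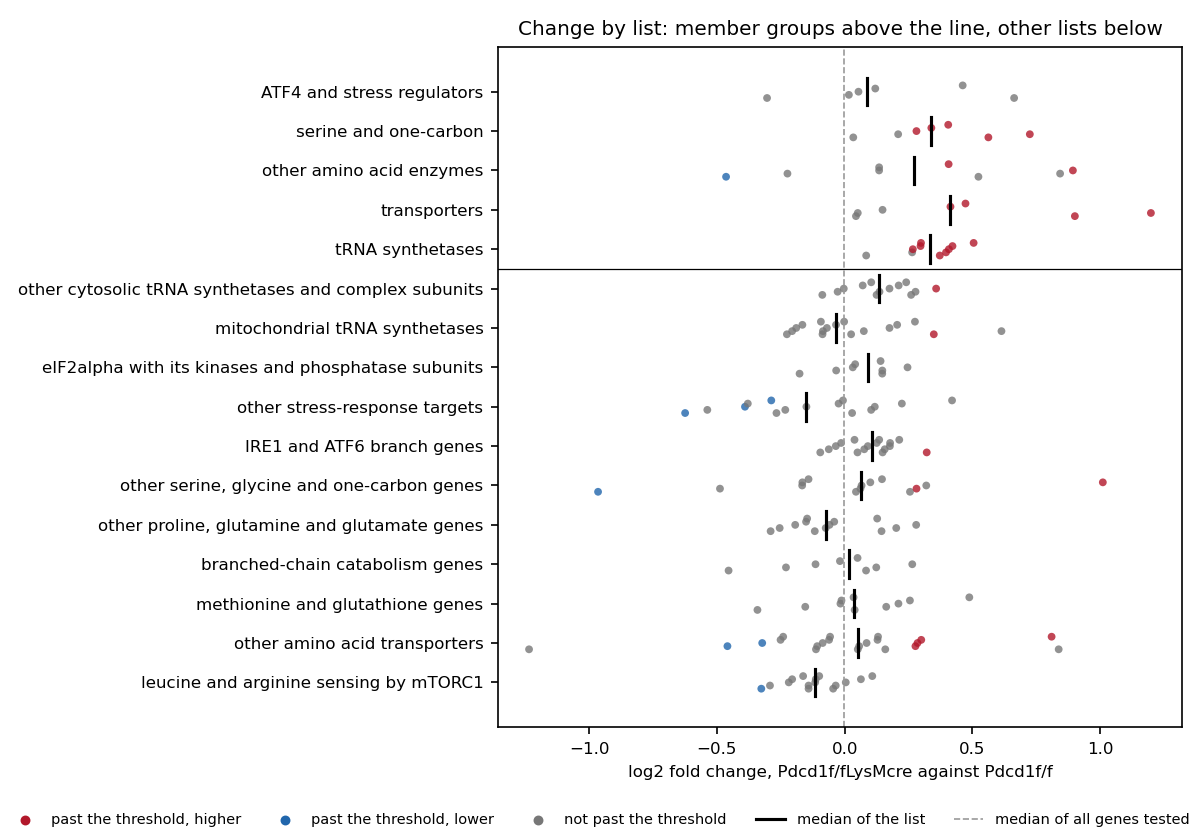
Log2 fold change (horizontal axis) of each tested gene, Pdcd1f/fLysMcre against Pdcd1f/f, in the 5 roles of the members (above the line) and in 11 other lists (below). Points are genes, red or blue where past the threshold, black bars are list medians and the dashed line is the median of all genes; the serine and one-carbon genes, the transporters and the tRNA synthetases have medians of 0.34, 0.41 and 0.34.

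Side by side, 5 of 7 serine and one-carbon genes, 4 of 7 transporters and 8 of 10 tRNA synthetases rose and none of these 24 genes fell. Their log2 fold changes ran from 0.03 to 0.73, from 0.04 to 1.199 and from 0.08 to 0.51, so the synthetases differed least among themselves. Averaged over the genes of a role on the log2(normalized count + 1) scale and centered on the 6 libraries, the synthetases lay between -0.17 and -0.16 in Pdcd1f/f TAMs and between 0.15 and 0.17 in Pdcd1f/fLysMcre TAMs. Serine and one-carbon genes lay between -0.24 and -0.13 and between 0.11 and 0.24, and transporters between -0.29 and -0.19 and between 0.17 and 0.29. The regulators lay between -0.22 and 0.00 and between -0.04 and 0.15, so their libraries overlapped. No test of a difference between roles was made.

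Lists of other genes of the stress response were read beside the members. Of 17 further targets of the response, 15 were tested, none was higher and 3 were lower in edgeR's test, with a median log2 fold change of -0.15. At an unadjusted p under 0.05, 2 were higher and 7 lower, when 12.3% and 11.9% of all genes were. DESeq2 called 2 higher (Atf5 and Herpud1, named after their values were seen) and 4 lower, and limma called 0 and 3. With GC and length offsets 3 were higher and 5 lower, the median was -0.05 and the sign of Cebpb, named after its values were seen, turned, and in the 4 libraries 2 were higher and 7 lower. Gpt2, the mitochondrial alanine transaminase, had normalized counts of 2217, 2278 and 2276 in Pdcd1f/f TAMs and 1489, 1434 and 1462 in Pdcd1f/fLysMcre TAMs (log2 fold change -0.62, SE 0.06, adjusted p = 0.000523), and it was past the threshold with each library left out. Atf3, an early stress transcription factor, had normalized counts of 19734, 20902 and 21806 in Pdcd1f/f TAMs and 16587, 16497 and 18012 in Pdcd1f/fLysMcre TAMs (log2 fold change -0.29, SE 0.07, adjusted p = 0.0327), and Ddit4, an inhibitor of mTORC1, was lower (log2 fold change -0.39, SE 0.10, adjusted p = 0.0446). Of 8 genes for eIF2alpha, its kinases and its phosphatase subunits, none passed in edgeR, DESeq2 or limma, and the median was 0.09. At an unadjusted p under 0.05, 3 were higher and none lower, with GC and length offsets 2 were higher and none lower, and in the 4 libraries 3 were higher and 1 was lower. The 3 at the unadjusted p, named after their values were seen, were Eif2s1, which encodes eIF2alpha itself, the kinase gene Eif2ak1 and the phosphatase subunit gene Ppp1r15b, with log2 fold changes of 0.25, 0.14 and 0.15. Of 16 genes of the IRE1 and ATF6 branches of the unfolded protein response, 1 was higher, the chaperone Hspa5 (log2 fold change 0.32, SE 0.08, adjusted p = 0.0405), and the median was 0.11. At an unadjusted p under 0.05, 7 of these 16 were higher and none lower, and the number called higher was 2 in DESeq2, 4 with GC and length offsets and 6 in the 4 libraries, with none lower, against the shares of all genes given for the cytosolic synthetases. In 8 of the 16, each Pdcd1f/fLysMcre library was above each Pdcd1f/f library, as in 14.1% of all genes.

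Neither the 13 other proline, glutamine and glutamate genes, the 8 branched-chain catabolism genes nor the 10 methionine and glutathione genes had a gene past the threshold in edgeR's test without offsets or in limma, and their medians were -0.07, 0.02 and 0.04. At an unadjusted p under 0.05, 2, 1 and 1 of them were higher and 1, 2 and 2 lower, when 12.3% and 11.9% of all genes were, and DESeq2 called Glud1 and Ppat of the first list higher and Bckdha of the second lower, all named after their values were seen. With GC and length offsets 2, 1 and 1 were higher and 0, 2 and 1 lower, when 9.45% and 8.54% of all genes were. In the 4 libraries 4, 1 and 0 were higher and 1, 3 and 1 lower, when 12.5% and 13.6% of all genes were. Of 15 genes for leucine and arginine sensing by mTORC1, Sesn1 was lower (log2 fold change -0.33, SE 0.07, adjusted p = 0.0259) and the median was -0.12. In all, 150 of 155 genes in the 11 lists were tested, 9 were higher and 7 were lower. Calls in these lists were sensitive to single libraries, with 1 past the threshold without Pdcd1f/f replicate 2, 2 without Pdcd1f/fLysMcre replicate 1, 4 without Pdcd1f/fLysMcre replicate 2, 5 without Pdcd1f/f replicate 3, 8 without Pdcd1f/fLysMcre replicate 3 and 47 without Pdcd1f/f replicate 1.

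Markers of cell types were read from the same libraries, and their part in the changes of the members was not tested. Of 8 macrophage markers, each was abundant and 3 were lower in Pdcd1f/fLysMcre TAMs, namely Adgre1, Csf1r and C1qa, with log2 fold changes of -0.38, -0.32 and -0.61. Of the other 5, Cd14 and Ptprc had positive log2 fold changes, 0.15 and 0.11. Cd14 had every Pdcd1f/fLysMcre library above every control and was past the threshold with GC and length offsets (adjusted p = 0.000306). Fcgr1 had every Pdcd1f/fLysMcre library below every control (log2 fold change -0.21) and was past the threshold as a decrease with these offsets (adjusted p = 0.00416). DESeq2 called 0 of the 8 markers higher and 4 lower. With the offsets 1 was higher and 4 lower, and in the 4 libraries 0 were higher and 5 lower. The shares over all genes are those printed above for these fits. The sum of all 8 was 298408 to 333805 normalized counts in Pdcd1f/f TAMs and 274641 to 283074 in Pdcd1f/fLysMcre TAMs. The 6 dendritic cell markers summed to 104 to 144 and to 197 to 200, and none of the 3 tested passed in edgeR, DESeq2 or limma, with 2 higher at an unadjusted p under 0.05. The 8 neutrophil markers summed to 4096 to 4455 and to 3719 to 4042, with Ly6g, Camp and Ngp at 0 to 8.3 normalized counts and 1 of 5 tested lower. The 8 T and NK cell markers summed to 620 to 693 and to 553 to 669, mostly from Cd4, the 5 B cell markers to 169 to 209 and to 120 to 149, mostly from Cd79b, with Pax5 at 0 in each library. The 8 fibroblast and tumor markers summed to 3084 to 3329 and to 2943 to 3238, with 1 of 6 tested lower, and the 4 endothelial markers to 1869 to 1988 and to 1519 to 1647, with 1 of 3 lower. Of 14 cell cycle genes none passed in edgeR, DESeq2 or limma, or had an unadjusted p under 0.05 in edgeR, and the median log2 fold change was 0.02.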

How the data were processed

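The authors prepared stranded polyA libraries from TAM RNA and sequenced paired-end 42-nt reads. They removed adapters with cutadapt (version 2.5), aligned to GRCm38 with STAR (2.7.3a) and counted reads on Ensembl genes with featureCounts (Subread 1.6.2). Strand setting and handling of multi-mapped reads are not given in the sources used here, so paralogs, pseudogenes and overlapping genes may share reads. The authors deposited raw counts for 55421 genes and a table of 16552 genes that is a normalized signal, in which each count is divided by a size factor of its library (0.895 to 1.081). The values printed are on this scale, and every column of sample values was used.

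Counts were tested with edgeR 4.0.16 (R 4.3.3; filterByExpr with a minimum count of 10 and minimum total of 15, TMM, robust glmQLFit, two-sided glmQLFTest, Benjamini-Hochberg adjustment over 14469 genes, threshold 0.05), with 3 libraries per genotype. The labels do not say whether these came from separate mice or from pools of mice, so p-values measure the spread between these libraries. Each library held both Xist and Y-linked counts, and whether it mixed cells of male and female mice was not tested. Alternatives were RLE or library-size scaling, 3 other filters, DESeq2 1.42.0 with Benjamini-Hochberg or Storey adjustment, limma-trend 3.58.1 on log2(value + 1), a replicate block, loess offsets for GC content and length (span 0.5), left-out libraries, an adjusted p under 0.01 and a fold change over 1.2. Tested on simulated counts of 14262 genes for this comparison, edgeR recovered 81 of 100 genes changed by 0.5 and 100 of 100 changed by 1 on the log2 scale, with 9 false calls among 190. The simulation gave every gene the same dispersion, changed only more abundant genes and held no GC trend. These rates therefore need not hold for the real libraries.

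Coordinates, lengths and GC content came from GENCODE M21 (GRCm38) and promoters from RefSeq (GRCm38.p6). Ddit3 has 2 Ensembl IDs, of which the second had no counts. Promoters were also searched for TGATGNAAT (0.965% of windows, 4 members) and ATTGCATCA (0.192%, 3 members). The members, their roles and all other lists were chosen with earlier results of these data known. All 39 members were accounted for. Some of the marker genes and promoter windows that were examined are not reported here. Full values are given for members past the threshold, the 3 largest changes of each role, Atf4 and Asns, and for genes past the threshold in other lists (up to 4 each). Lyz2 and Pdcd1 were named as checks of the labels, and Lyz1, the paralog of Lyz2, had 126 to 173 normalized counts in controls and 3462 to 3816 in Pdcd1f/fLysMcre TAMs.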

Additional observations from a re-analysis of the deposited data

How the results depend on the processing

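In edgeR's fit of 6 libraries 20 members passed the threshold, 19 higher and 1 lower, with 16 genes of the other lists and 786 of all genes. Members past the threshold numbered 31 (29 higher, 2 lower) with GC and length offsets and the replicate block, 11 (10 higher) at an adjusted p under 0.01 and 5 (5 higher, 0 lower) with a fold change above 1.2. Members higher numbered 29 with GC and length offsets alone, and members lower numbered 2 with at least 1 count in any library and 3 without Pdcd1f/f replicate 1 and Pdcd1f/fLysMcre replicate 2 together. Leaving out 1 library gave 8 to 23 members, 7 to 20 higher and 1 to 3 lower. For the other lists and for all genes the numbers were 33 and 1951 with at least 1 count in any library, 28 and 1517 with DESeq2, 28 and 1766 with Storey q-values, 45 and 2603 with GC and length offsets, 48 and 2712 with the replicate block added to them, 54 and 3757 without those 2 libraries together, 3 and 283 at an adjusted p under 0.01 and 3 and 193 with a fold change above 1.2. With 1 library left out they ranged from 1 to 47 and from 222 to 3181. The cause of these shifts was not tested.

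Over 52 named genes and 20 alternatives, 851 of 1040 values kept direction and call, 42 gained the call, 134 lost it and 13 changed sign, each of an uncalled gene. As log2 fold changes, Atf4 was -0.000855 with library size alone, -0.00236 without Pdcd1f/f replicate 1 and Pdcd1f/fLysMcre replicate 2 together and -0.0252 to 0.0499 with 1 library left out. Without those 2 libraries Shmt1 was -0.0186 and Slc3a2 -0.0017. With 1 library left out, Slc3a2 ranged from -0.0247 (without Pdcd1f/f replicate 1) to 0.083 and Bcat1 from -0.0457 (without Pdcd1f/f replicate 3) to 0.252. With GC and length offsets Cebpg was -0.0449 and Slc38a2 -0.0241, and with the replicate block added -0.0447 and -0.0242. Asns, Gars, Mthfd2 and Slc7a11 were called in each alternative. Same-numbered libraries correlated at -0.0132, -0.097 and 0.22 in their deviations from the genotype means. These deviations also carry the GC trend of Pdcd1f/f replicate 1 and Pdcd1f/fLysMcre replicate 2. The correlations therefore cannot decide whether replicate numbers pair the libraries. With the replicate block 21 members, among them the 20, and 1027 of all genes were called. Raw counts were low, at 15 to 40 per library for Cth, 45 to 92 for Bcat1 and 7 to 16 for Pdcd1, the effect of depth on their calls was not tested, and Cbs was under the filter on low counts.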
